A study of Mus musculus with 16 samples.

Results

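Cordycepin lowered a small set of transcripts in resting macrophage-like cells by far more than most, and 4 genes were chosen by their falls for a closer description: Jrk, Hinfp, Map3k9 and Plekho2. They are 4 of 34836 gene names on the array and were found as all probes that carry a member's name, 9 probes in all, each kept on its own. Since the choice used the cordycepin comparisons of these same arrays, the values with and without the drug are given as a description and carry no test. The label fits Jrk, Hinfp and Map3k9 at rest, but Jrk and Map3k9 were near background with the drug. With another background correction their falls at rest came to -1.22 and -1.21 (log2). The brightest Plekho2 probe stayed between -1.35 and -1.23 over the other processing settings, so this contrast between the genes depends on the background correction. For Plekho2 the difference was larger under LPS, and 1 of its 3 probes moved the other way.

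The cells were RAW264.7, a macrophage-like line that grew from a mouse tumour. They were kept in low serum overnight and then received either the vehicle DMSO or cordycepin at 20 µM, an adenosine analogue without the 3′ hydroxyl group that inhibits polyadenylation. After 60 min the LPS wells received LPS, a bacterial membrane component sensed through Toll-like receptor 4, at 1 µg/ml, and all wells were lysed 120 min after the drug. The conditions are called DMSO, LPS+DMSO, cordycepin and LPS+cordycepin, with 4 replicates each. A replicate number stands for a collection day and for the wells of 1 plate, as the labels say. Replicates 1 and 2 of every condition lay on one array slide and replicates 3 and 4 on the other. All samples are 1 cell line with no primary macrophages, and everything in them shares the low serum and the DMSO solvent.

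Most mRNAs end in a poly(A) tail that is added after the transcript is cut a short distance downstream of a signal, usually AATAAA. The tail marks the RNA for export and protects it. The labelling kit named in the labels starts from an oligo(dT) primer, so the arrays read RNA that such a primer can bind. The 4 genes have separate roles. Hinfp encodes a zinc finger factor that activates histone H4 genes, Map3k9 a mixed-lineage kinase upstream of JNK, Jrk a DNA-binding protein related to centromere protein B and to pogo transposases, and Plekho2 a protein with a pleckstrin homology domain.

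All positions are on mm9 as the array files give them, and all 9 probes lie on the minus strand. The Jrk probe is at chr15:74535467-74535526 and starts at base 2844 of NM_008415. The brighter Hinfp probe is at chr9:44103969-44104028, base 1827 of NM_172162. The other Hinfp probe starts at base 780 of the same transcript and its 60 bases span 149 bases of genome at chr9:44106295-44106443, so that 89 bases of intron lie within it. Map3k9 had probes at chr12:82830513-82830572, chr12:82822600-82822659 and chr12:82821094-82821153, at base 2216 of NM_177395 and bases 3896 and 5402 of NM_001174107. Plekho2 had probes at chr9:65402408-65402467 and chr9:65402194-65402253, at bases 3043 and 3257 of NM_153119, and a probe at chr9:65399570-65399629 that was designed on the cDNA clone AK172714. This last probe lies 2564 bases further along the gene's strand and is called the downstream probe here. In the RefSeq table (GRCm38.p6, used for names only), the lncRNA genes Gm32994 and 4933427E11Rik overlap Jrk and Gm51712 overlaps Plekho2, while no gene overlaps Hinfp or Map3k9.

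The sequences below show what could be read of these transcripts. The first is the Hinfp probe across a splice junction, which can bind only spliced RNA along its whole length. The other 2 are stretches of the last Plekho2 probe of NM_153119 and of the downstream probe, shown because both hold AATAAA, in capitals, as 10.06% of all 55681 probes did (5602).
Hinfp, base 780 of NM_172162: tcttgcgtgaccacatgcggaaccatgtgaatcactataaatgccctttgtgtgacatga
Plekho2, base 3257 of NM_153119: ttgtcatttggcAATAAAcctcattttatg
Plekho2, downstream probe: cctcatttcatccctggcactgAATAAAac
None of the other 7 probes held AATAAA, and none of the 9 held the variant ATTAAA, which 3.95% of all probes did. A match to these letters does not show that a transcript ends there.

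Promoter sequences were matched for 2 of the 4 genes, Map3k9 and Plekho2, in the RefSeq promoter table on GRCm38.p6, at chr12:81781121-81781420 and chr9:65580038-65580337, both on the minus strand. They run from 250 bases before the start of the gene to 50 bases after it. These 2 are shown because the table held no promoter for Jrk or Hinfp. Any relation of their motifs to the values here was not tested. Capitals mark GGGCGG or its complement, the GC box.
Map3k9: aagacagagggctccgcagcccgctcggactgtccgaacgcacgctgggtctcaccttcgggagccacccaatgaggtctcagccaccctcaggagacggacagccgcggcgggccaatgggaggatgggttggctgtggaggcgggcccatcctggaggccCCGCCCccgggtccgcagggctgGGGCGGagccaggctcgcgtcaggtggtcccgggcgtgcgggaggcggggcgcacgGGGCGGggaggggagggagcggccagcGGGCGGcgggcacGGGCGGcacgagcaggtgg
Plekho2: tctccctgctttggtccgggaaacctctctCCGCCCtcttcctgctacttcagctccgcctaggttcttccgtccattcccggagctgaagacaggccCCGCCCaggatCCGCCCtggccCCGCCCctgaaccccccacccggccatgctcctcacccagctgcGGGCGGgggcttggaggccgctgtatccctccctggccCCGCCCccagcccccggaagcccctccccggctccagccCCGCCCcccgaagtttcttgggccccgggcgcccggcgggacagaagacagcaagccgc
The Plekho2 promoter held 7 GC boxes on either strand and the Map3k9 promoter 5, and 35.7% of 32851 promoters held at least 1. Their G and C content was 72.0% and 75.7%, against a median of 52.7% over all promoters. CCAAT was found at 2 places in Map3k9 and at 0 in Plekho2, and 37.4% of promoters held it on either strand. TATAAA, which 13.6% of promoters held, was in neither window.

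A probe was tested when it was well above background, by the scanner software, on all 4 arrays of at least 1 condition, which left 21597 of 55681 probes. Of the 9 probes of the 4 genes, 6 passed. The others were the Map3k9 probes at bases 2216 and 5402, which were well above background on 0 of 16 arrays, and the Hinfp probe across the splice junction, on 5 of 16. Between 37.1% and 51.2% of spots were well above background on an array, with 37.1% to 43.9% on the slide of replicates 1 and 2 and 45.8% to 51.2% on the other. Of 10 macrophage markers, 9 were well above background on all 16 arrays (Mrc1, on 11, was the exception), whereas none of the 5 fibroblast or 5 epithelial markers was. Signals are log2 values after each array was scaled to its upper quartile, so a level is relative to the other RNA of the array. In bulk RNA, fewer cells with a transcript and less of it per cell cannot be told apart.

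Jrk, whose disruption in mice causes seizures, had a signal of 7.68, 7.35, 7.56 and 7.66 in DMSO replicates 1 to 4 and of 5.53, 5.18, 4.86 and 5.06 with cordycepin. It read 7.34, 7.41, 7.47 and 7.13 in LPS+DMSO and 4.03, 4.78, 5.21 and 4.32 in LPS+cordycepin. Every array with the drug was below every array without it, and in DMSO the arrays with and without LPS overlapped. The mean was 7.56 ± 0.15 (SD, n = 4) in DMSO and 5.16 ± 0.28 in cordycepin, a difference of -2.40, or 5.29-fold. With LPS the means were 7.34 ± 0.15 and 4.58 ± 0.52, and the difference was -2.76. In LPS+cordycepin Jrk was not well above background on any of the 4 arrays, so the size of its difference from LPS+DMSO is uncertain. The measured means differ by 6.76-fold. The dim group was also set at the lowest signal that was well above background on each array, or at the probe's own signal if higher. The fall then came to 3.90-fold. This is no lower limit, since the log2 difference was -1.06 with normexp background correction. In cordycepin alone 2 of 4 arrays measured it.

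Hinfp differed between arrays with and without the drug by an almost equal amount at rest and under LPS. Its brighter probe read 9.72, 9.73, 9.90 and 10.11 in DMSO and 7.29, 7.35, 7.79 and 7.45 in cordycepin, and every array was well above background. In LPS+DMSO it read 9.85, 9.95, 9.98 and 10.39, and in LPS+cordycepin 7.33, 7.60, 7.94 and 7.72. Arrays with and without the drug did not overlap, whereas arrays with and without LPS did. The means (SD, n = 4) were 9.87 ± 0.18 in DMSO and 7.47 ± 0.22 in cordycepin, and with LPS 10.04 ± 0.24 and 7.65 ± 0.25. The difference with cordycepin was -2.39 at rest and also -2.39 under LPS, and the difference between these on each day averaged 0.0029 ± 0.064.

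The Hinfp probe across the splice junction gave the same direction near the limit of the arrays. Its mean was 5.66 ± 0.20 in DMSO, with 2 of 4 arrays well above background, and 5.82 ± 0.23 in LPS+DMSO, with 3 of 4. With cordycepin the means were 3.60 ± 0.48 and, under LPS, 3.90 ± 0.32, with 0 of 4 arrays above background in either. With the dim groups set as for Jrk, the fall came to 1.46-fold at rest and 1.36-fold under LPS. These are no lower limits, since the groups without the drug were partly at background as well. The 2 Hinfp probes lie 2266 bases apart on the genome.

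Map3k9 was measured by 1 of its 3 probes. The probe at base 3896 read 7.73, 7.11, 7.71 and 7.88 in DMSO and 5.91, 4.95, 5.34 and 4.91 in cordycepin. With LPS it read 7.21, 6.87, 7.00 and 6.75 in DMSO and 5.69, 4.45, 5.11 and 6.32 in cordycepin. The drug again separated the arrays, and LPS+cordycepin spread more widely than the other conditions. The means were 7.61 ± 0.34 in DMSO and 5.28 ± 0.46 in cordycepin, a difference of -2.33, and 6.96 ± 0.20 and 5.39 ± 0.80 with LPS, a difference of -1.56 (SD, n = 4). Well above background were 2 of 4 arrays in cordycepin and 1 of 4 in LPS+cordycepin. On the slide of replicates 1 and 2 the difference under LPS was -1.97, and on the other slide -1.16. On that slide it was -1.89 on day 3 and -0.42 on day 4, where LPS+cordycepin read 6.32. The other probes, at the far 3′ end of NM_001174107 and on the variant NM_177395, had means between 3.05 and 3.62 in every condition, all at background, so they say nothing of these transcripts.

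**Figure D1:**
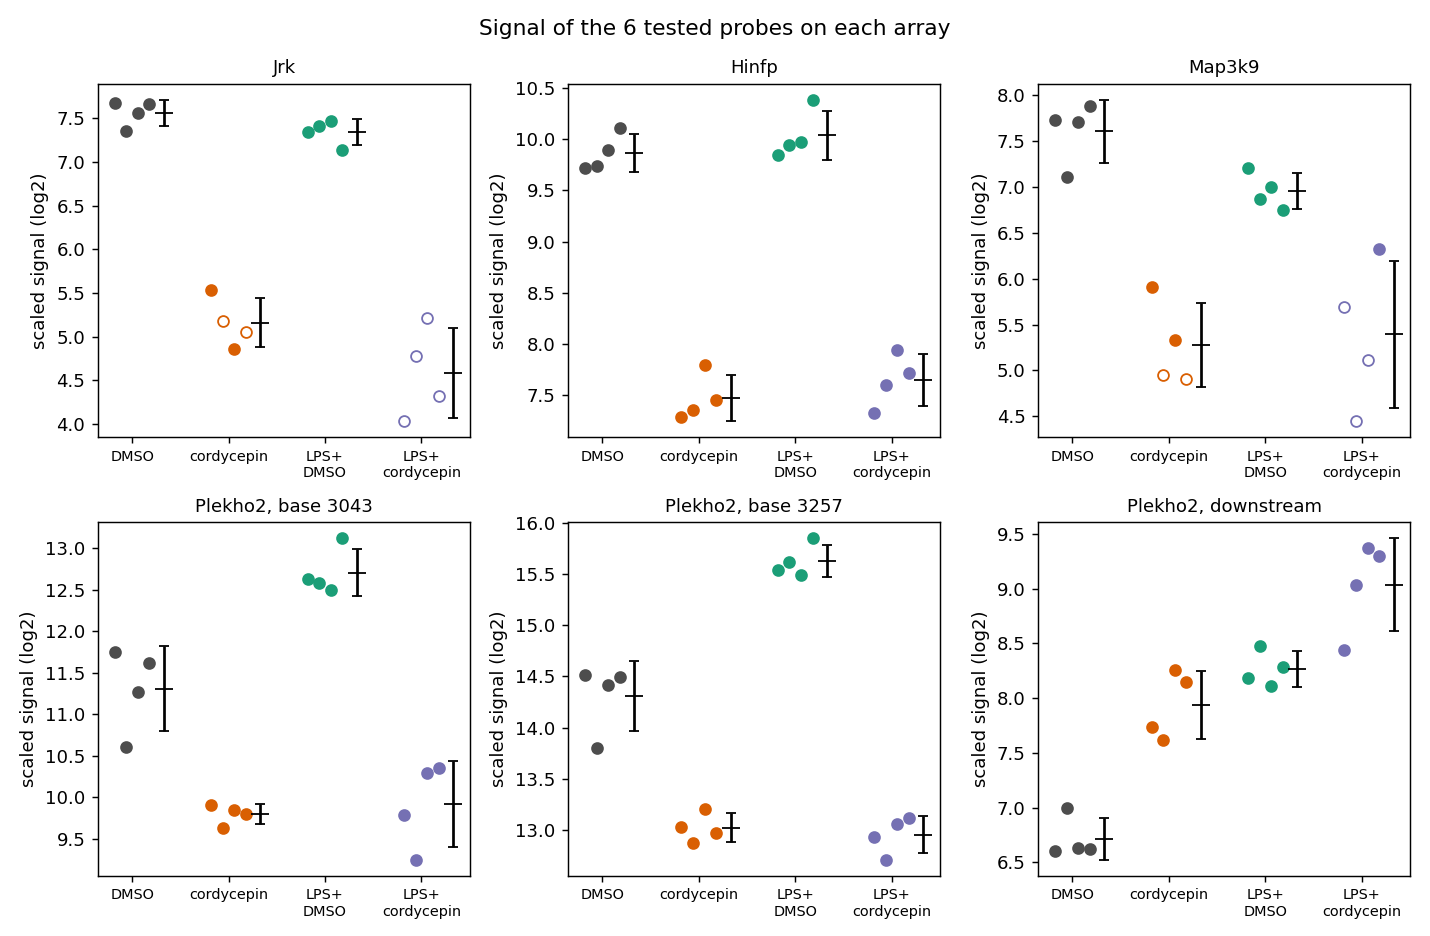
Scaled log2 signal of the 6 tested probes on each of 16 arrays, by condition, with 1 panel a probe and a scale of its own. Points are replicates 1 to 4 from left to right, open where not well above background, and bars are mean and SD (n = 4). Arrays with cordycepin lie below those without it in the first 5 panels and the DMSO arrays lie lowest in the last, where DMSO spans 6.60 to 7.00.

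Plekho2, a pleckstrin homology domain protein related to Plekho1, was well above background on all 16 arrays with each of its 3 probes. The probe at base 3257 read 14.51, 13.80, 14.42 and 14.50 in DMSO and 13.03, 12.87, 13.21 and 12.96 in cordycepin. With LPS it read 15.55, 15.62, 15.50 and 15.85 in DMSO and 12.93, 12.71, 13.05 and 13.12 in cordycepin. The levels fell in the order LPS+DMSO, DMSO and then both drug conditions, and only the drug conditions overlapped each other. The means (SD, n = 4) were 14.31 ± 0.34 in DMSO and 13.02 ± 0.14 in cordycepin, and with LPS 15.63 ± 0.16 and 12.95 ± 0.18. The difference with cordycepin was -1.29 at rest and -2.68 under LPS.

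The Plekho2 probe 154 bases before it moved in the same way. Its means (SD, n = 4) were 11.31 ± 0.51 in DMSO and 9.80 ± 0.12 in cordycepin, and with LPS 12.71 ± 0.28 and 9.92 ± 0.52. The difference with cordycepin was -1.51 at rest and -2.78 under LPS. On each of the 4 days it was larger under LPS than at rest on both probes, by a mean of -1.27 ± 0.73 on this one and -1.39 ± 0.40 on the brighter one.

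The downstream Plekho2 probe went the other way. It read 6.60, 7.00, 6.63 and 6.62 in DMSO and 7.74, 7.62, 8.25 and 8.14 in cordycepin. With LPS it read 8.19, 8.48, 8.11 and 8.29 in DMSO and 8.44, 9.03, 9.37 and 9.30 in cordycepin. DMSO was below all other conditions, while cordycepin overlapped LPS+DMSO, and LPS+DMSO overlapped LPS+cordycepin. The means (SD, n = 4) were 6.71 ± 0.19 in DMSO and 7.94 ± 0.31 in cordycepin, and with LPS 8.27 ± 0.16 and 9.04 ± 0.42. The difference with cordycepin was 1.22 at rest and 0.77 under LPS, higher on 4 of 4 days in both. Within an array, the downstream signal less that of the probe at base 3257 was larger with cordycepin than with DMSO by 2.51 ± 0.67 at rest, between 1.55 and 3.05 on single days, and by 3.45 ± 0.41 under LPS. LPS changed this distance by 0.23 ± 0.40 in DMSO and by 1.16 ± 0.34 in cordycepin, in the latter on 4 of 4 days.

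DMSO replicate 2 stood apart for Plekho2. It was the lowest DMSO array on both probes of NM_153119, at 10.61 and 13.80, and the highest on the downstream probe, at 7.00. Without it the differences with cordycepin at rest were -1.75, -1.46 and 1.32 for the probes in the order of their positions.

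The same strand carried further signal beyond the downstream probe. The array files list a lincRNA region on mm9 at chr9:65376063-65390480, and 5 tested minus-strand probes of it lie about 15 kb beyond the downstream probe, the nearest at a gap of 15.4 kb. These probes were not used in the choice, so cordycepin was tested here with limma and p was adjusted over all tested probes. Of the 5, 3 rose with cordycepin at rest and under LPS and with LPS in both arms, and 0 fell in any of the 4 comparisons. Of these 3, only the probe at chr9:65383868-65383927 was well above background on all 16 arrays. Over all tested probes, 5.55% and 7.11% were called higher with cordycepin at rest and under LPS. With LPS the shares were 2.15% in DMSO and 1.64% in cordycepin. With spike-in scaling none of the 3 was called with LPS in cordycepin, at 0.996, 0.990 and 1.26 (adjusted p = 0.307, 0.338 and 0.112, limma). The probe at chr9:65384078-65384137 had means of 4.01 ± 0.36 in DMSO, where it was not well above background on any array, 9.28 ± 0.34 in cordycepin, and with LPS 8.96 ± 0.24 and 10.86 ± 0.55. Its measured differences from DMSO were 5.27 in cordycepin and 4.94 in LPS+DMSO. No p is given for these differences, since the probe passed the filter only through the conditions where it was high. With DMSO set as the dim group was for Jrk, they came to 18.6-fold and 14.8-fold. These are no lower limits, since other settings gave log2 differences of 2.57 to 5.33 and of 2.27 to 5.10. Under LPS this probe differed by 1.90 with cordycepin (SE 0.25, adjusted p = 3.82e-05, limma). The 2 probes that were not called differed by 0.08 and 0.76 with cordycepin at rest. They were the brightest of the 5 in DMSO, at 10.33 and 10.67. All 5 lie between bases 65383868 and 65384209 of chr9, and the one with 0.76 lies between called probes. Close probes of 1 short stretch thus differed. Of the region's plus-strand probes, the 1 tested rose with LPS+DMSO against DMSO (1.56, adjusted p = 0.027, limma) and was not called in the other comparisons. Whether these signals belong to 1 transcript with Plekho2 was not tested.

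**Figure D2:**
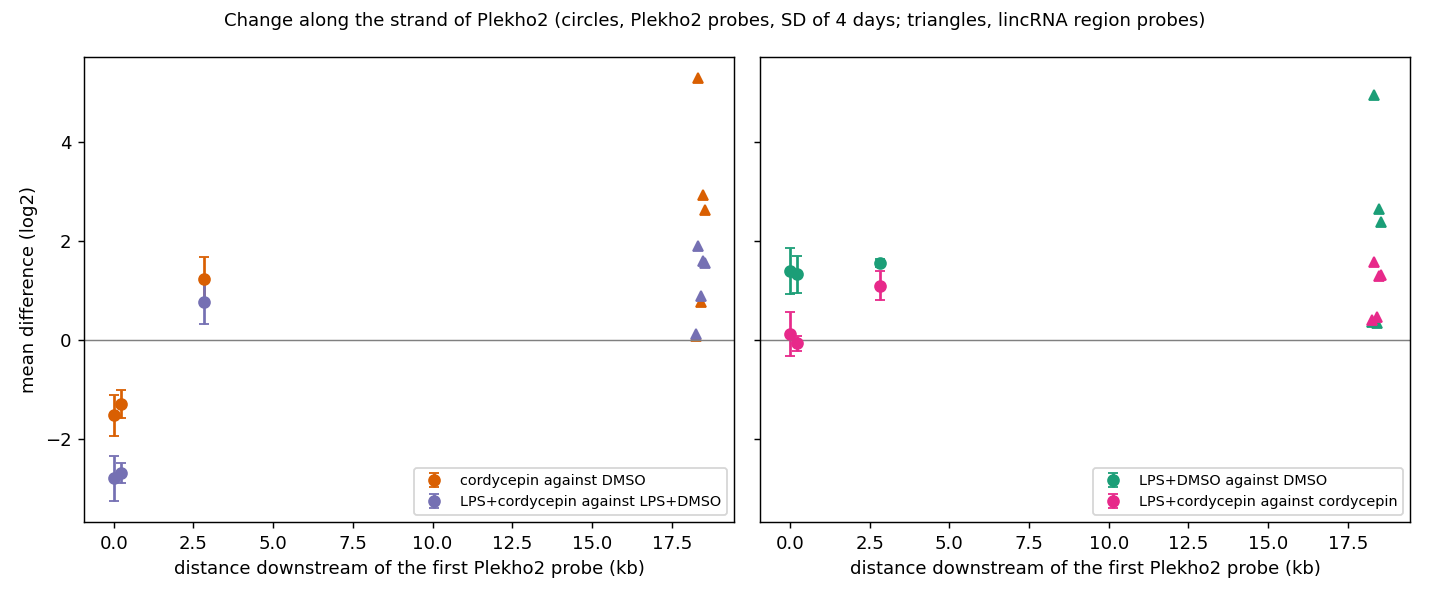
Mean log2 difference against the distance in kb from the first Plekho2 probe, along the strand of the gene, for the comparisons with cordycepin (left) and with LPS (right). Circles are the 3 Plekho2 probes with the SD of 4 day differences, and triangles are the 5 tested minus-strand probes of the lincRNA region. The first pair of circles lies below 0 with cordycepin, at -1.51 and -1.29 at rest, whereas the downstream circle and the triangles lie above 0.

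Against all probes, 234 of 21597 (1.08%) were called lower with cordycepin at rest and 1199 (5.55%) higher, and 348 (1.61%) lower and 1536 (7.11%) higher under LPS. A probe was called where its change was 2-fold or more and its adjusted p under 0.05 (limma, Benjamini-Hochberg). The members were picked from the low end, so their place there is no result. Among 11637 tested genes with a symbol in RefSeq, each by its brightest probe, Jrk, Hinfp and Map3k9 were 2nd, 3rd and 4th by the size of the fall at rest. Jrk and Map3k9 were well above background on only 2 of 4 cordycepin arrays, and their falls came to -1.22 and -1.21 with normexp background correction and to -1.74 and -1.73 with the authors' values, against -1.97 for Hinfp with normexp, so the order depends on the background correction. Rabep1, an endosomal protein, came first at -2.63, but with an SE of 1.38 it was not called, and Jmjd4, an oxygenase, followed Map3k9 at -2.30 and was called lower. Plekho2 stood 78th, between Lcn2 (-1.29, not called) and Mocs3 (-1.29, called lower). Under LPS, Jrk was at background in LPS+cordycepin and its measured value gives no place in the order. Plekho2 stood 4th, after Chac1 (-2.70, called lower) and Btg1 (-2.69, SE 1.24, not called), while Hinfp was 7th and Map3k9, with 1 of 4 drug arrays well above background, 62nd, all with Jrk counted at its measured value. The genes beside these were Rsad2 (-2.54) after Plekho2, Traf1 (-2.52) and Rif1 (-2.38, not called) around Hinfp, and Pvt1 (-1.57) and Ptar1 (-1.56) around Map3k9, called lower except where stated.

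**Figure D3:**
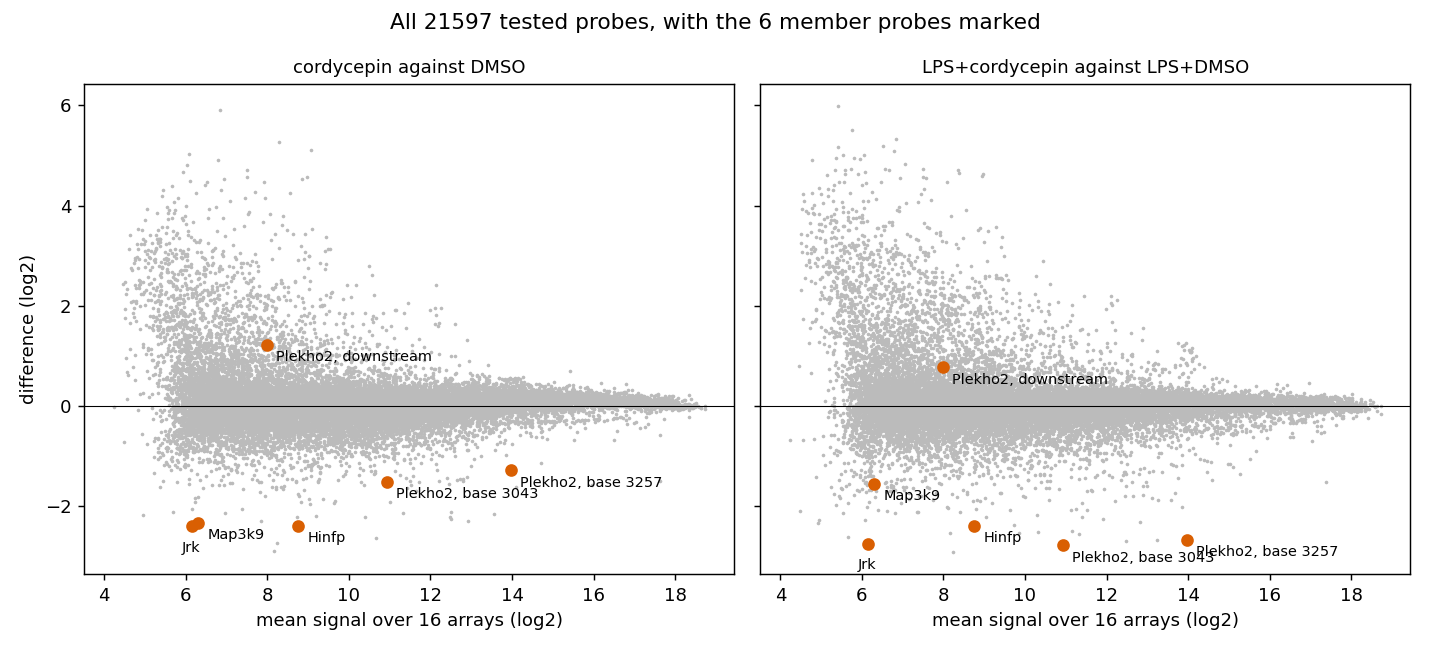
Log2 difference with cordycepin against the mean log2 signal over 16 arrays for all 21597 tested probes (grey), at rest (left) and under LPS (right), with the 6 probes of the 4 genes in orange. Jrk, Map3k9 and Hinfp lie at the lower edge at rest, at -2.40, -2.33 and -2.39, and the Plekho2 probes of NM_153119 lie there under LPS, at -2.78 and -2.68.

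The response to LPS was not itself the measure that picked the genes and was tested, although each LPS comparison shares 1 condition's arrays with each comparison that chose them. Plekho2 stood 4th by its fall under LPS and 78th at rest. A high level in LPS+DMSO enlarges both that fall and a rise with LPS in DMSO. The tests of this rise at bases 3043 and 3257 are therefore not free of the choice. In DMSO, LPS raised Plekho2 and none of the others passed the threshold. In LPS+DMSO against DMSO 464 probes were called higher (2.15%) and 585 lower (2.71%), and the called members were the 3 probes of Plekho2. The probes at bases 3043 and 3257 rose by 1.40 (SE 0.26, adjusted p = 0.00138, limma) and 1.32 (SE 0.15, adjusted p = 1.86e-05), and the downstream probe by 1.55 (SE 0.19, adjusted p = 4.0e-05), each on 4 of 4 days. With the arrays scaled to spiked-in controls the first 2 rises were 1.30 and 1.23 and were not called (adjusted p = 0.067 and 0.075), and with normexp background correction the downstream rise was 0.90, under 2-fold.

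The other 3 genes did not pass the test with LPS in DMSO. Map3k9 differed by -0.65 (SE 0.32, adjusted p = 0.227, limma), lower on 4 of 4 days by between 0.24 and 1.14, Jrk by -0.22 (SE 0.21, adjusted p = 0.596) and Hinfp by 0.17 (SE 0.16, adjusted p = 0.580), higher on 4 of 4 days.

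In cells that already held cordycepin, the downstream Plekho2 probe rose with LPS. In LPS+cordycepin against cordycepin 354 probes were called higher (1.64%) and 292 lower (1.35%). The downstream probe rose by 1.097 (SE 0.19, adjusted p = 0.00159, limma), on 4 of 4 days. This call was lost without replicate 2 of both conditions (0.99), without cordycepin replicate 2 (0.99) and without LPS+cordycepin replicate 3 (0.99), and with spike-in scaling (0.79), normexp (0.89) and the authors' values (0.98), where it was just under 2-fold or not significant. The Plekho2 probes at bases 3043 and 3257 differed by 0.13 (SE 0.26, adjusted p = 0.890) and -0.07 (SE 0.15, adjusted p = 0.905), and Hinfp by 0.17 (SE 0.16, adjusted p = 0.666), and these 3 were not called. For Jrk and Map3k9 no change with LPS could be read here, since 2 and 0 of 4 arrays for Jrk, and 2 and 1 for Map3k9, were well above background in cordycepin and LPS+cordycepin. That LPS raised the first 2 Plekho2 probes in one arm and not in the other was not tested as a difference, since that difference is made of the comparisons that chose the gene.

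**Figure D4:**
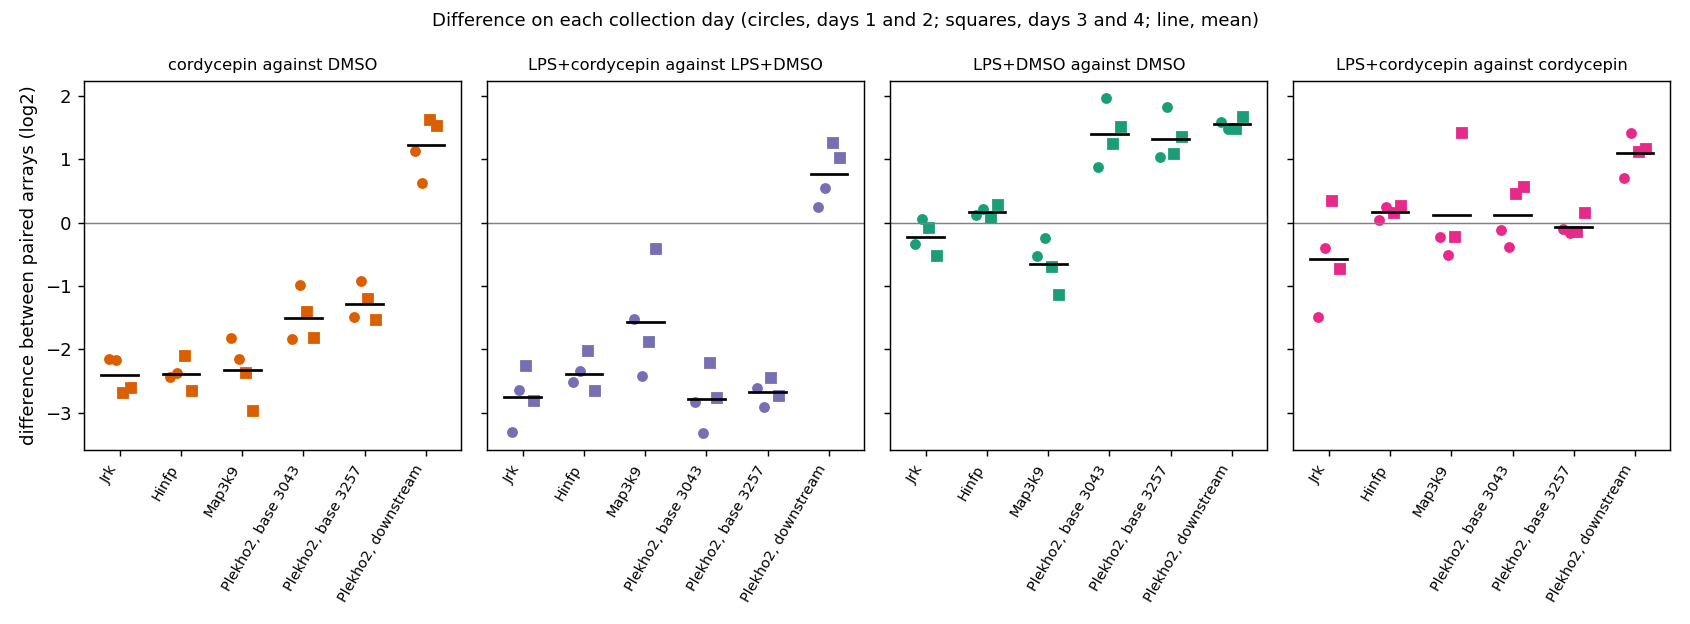
Log2 difference between the 2 arrays of each collection day for the 6 tested probes, with 1 panel for each of the 4 comparisons. Circles are days 1 and 2 and squares days 3 and 4, which were on the other slide, and lines are means. On each of 4 days the first 5 probes were lower with cordycepin, and with LPS+DMSO the 3 Plekho2 probes rose by means of 1.40, 1.32 and 1.55.

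Genes of a pathway, process or protein family of each member were counted in lists in which the member itself was left out. Each gene stood for itself by its brightest tested probe, and of 15887 such genes cordycepin lowered 168 (1.06%) and raised 715 (4.5%) at rest, and lowered 243 (1.53%) and raised 947 (5.96%) under LPS. LPS lowered 397 (2.5%) and raised 333 (2.1%) in DMSO, and lowered 194 (1.22%) and raised 268 (1.69%) in cordycepin. Of the JNK cascade, 16 other genes were tested. None was called with cordycepin at rest (0 of 16), under LPS 1 rose and 0 fell, and 0 were called with LPS in either arm. Beside a share of 1.06% over all genes, 0 lower calls among 16 genes is no result about the list. The median difference with cordycepin at rest was -0.12, against 0.04 over all tested genes. The gene that rose was Mapk8ip1, a scaffold of the cascade, by 1.14 (SE 0.23, adjusted p = 0.00173, limma), a call that was lost with normexp (0.75), the authors' values (0.72), quantile normalization (0.89) and spike-in scaling (0.99). The kinases nearest to Map3k9 in kind were not called: Map3k10 differed by 0.27 and Map3k11 by -0.25 at rest, and the kinases Map2k4 and Map2k7 that they act on by -0.08 and -0.02.

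Histone H4 genes and the genes that control them, 17 tested beside Hinfp, gave 0 calls with cordycepin at rest, and under LPS 1 rose and 0 fell. Their median difference at rest was 0.09, and Lsm11, of the histone U7 particle, differed by -0.68 (adjusted p = 0.00425, limma), under 2-fold. The gene that rose, Zfp473, a protein of the histone 3′ end processing complex, differed by 1.08 (SE 0.29, adjusted p = 0.0141, limma), with 2 of 4 LPS+DMSO arrays well above background. This call was lost in 11 settings and left-out sets, among them the authors' values (0.48, adjusted p = 0.376), quantile normalization (0.81, adjusted p = 0.056) and normexp (0.57). Zfp473 fell by 1.49 with LPS in DMSO (adjusted p = 0.00227), a call that was lost with normexp (-0.87) and with the authors' values (-1.01, adjusted p = 0.0578). The H4 genes with the brightest probes, Hist1h4k, Hist2h4 and Hist1h4d, differed by 0.27, 0.30 and 0.37 with cordycepin at rest and by -0.01, 0.00 and 0.03 under LPS. The copies are near-identical, so that a probe may read more than 1 of them, and most histone mRNAs carry no poly(A) tail.

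Of the CENP-B and pogo transposase relatives of Jrk, 5 others were tested. Tigd3 rose with cordycepin by 2.01 at rest (SE 0.15, adjusted p = 1.38e-07, limma) and by 2.36 under LPS (adjusted p = 1.95e-08), opposite to Jrk, and 0 fell in either. Cenpb, which binds the repeats of centromeres, differed by -0.04 and -0.19, and Pogz, a chromatin protein, by -0.89 and -0.83, under 2-fold (adjusted p = 0.000104 and 0.00014, limma). None of the 5 was called with LPS in either arm.

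The PLEKH genes, named for a pleckstrin homology domain, were 21 beside Plekho2. With cordycepin at rest 2 fell and 1 rose, with LPS present 2 fell and 2 rose, with LPS in DMSO 0 were called, and with LPS in cordycepin 1 rose and 1 fell. Plekhm1, which acts in fusion with lysosomes, fell by 1.63 at rest (SE 0.13, adjusted p = 2.96e-07, limma) and fell by 1.07 under LPS, and Plekhm3 fell by 1.30 at rest and fell by 1.23 under LPS. Plekhg4, an exchange factor for small GTPases, rose by 2.81 at rest, from 1 to 4 of 4 arrays well above background, and by 1.82 under LPS. Plekhg2, of the same class, rose by 1.01 with cordycepin under LPS, a call lost in 11 settings and left-out sets, and by 1.20 with LPS in cordycepin, a call lost with spike-in scaling (0.89). Plekhf1, an endosomal protein, fell by 1.16 with LPS in cordycepin (adjusted p = 0.0063), with 1 of 4 LPS+cordycepin arrays well above background. This call was lost in 5 settings and left-out sets, with -0.20 by normexp (adjusted p = 0.817) and -0.43 by the authors' values (adjusted p = 0.156). Plekho1, the closest relative of Plekho2, differed by 0.16 at rest and 0.14 under LPS with cordycepin and by -0.24 with LPS, none of them called. Over all PLEKH genes the median difference with cordycepin was -0.26 at rest and -0.01 under LPS.

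**Figure D5:**
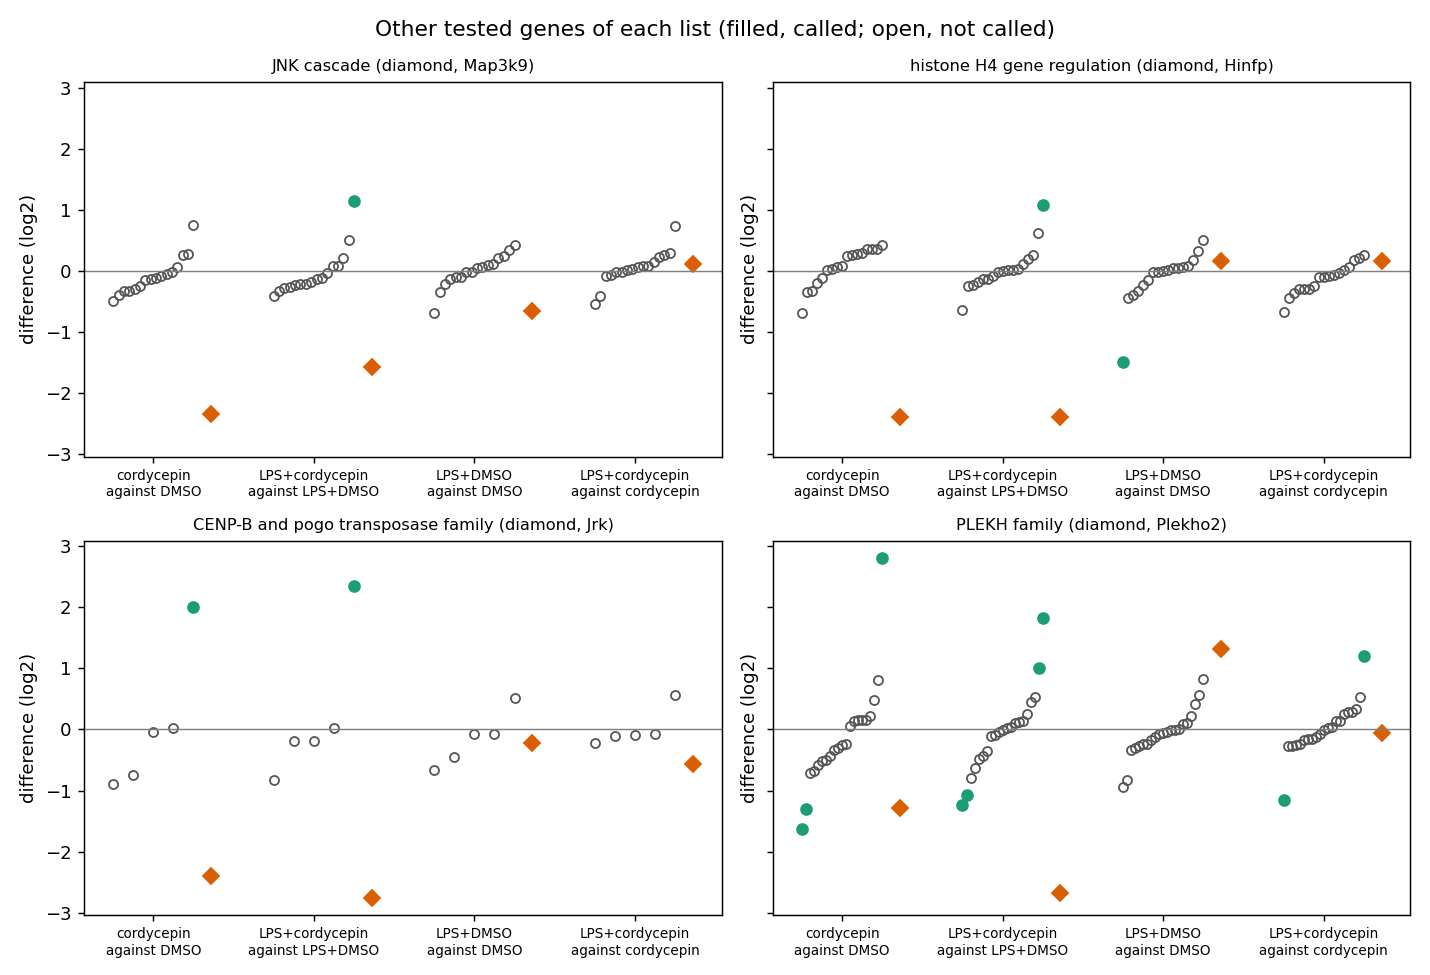
Log2 difference in each of the 4 comparisons for the other tested genes of 4 lists (circles, filled where called) and for the listed member (diamond). In the JNK and histone H4 panels no circle is filled at rest with cordycepin, where Map3k9 and Hinfp lie at -2.33 and -2.39, while the PLEKH panel holds 2 filled circles below 0 and 1 above.

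Genes whose signal over the 16 arrays was most like that of a member were sought by Pearson's correlation with its brightest probe, as a description, since all points share the 4 conditions. For Jrk they were Surf6, a nucleolar protein (r = 0.977), Trmt61a, a tRNA methyltransferase subunit (0.973), and B3galt6, a galactosyltransferase (0.972). For Hinfp they were Papolg, a nuclear poly(A) polymerase (0.989), Fbxo46, an F-box protein (0.986), and Mul1, a mitochondrial ubiquitin ligase (0.985). These 12 genes were picked on the arrays that chose the members, so their own differences with cordycepin follow from the choice and are given as values. Those of the first 6 were -1.30 to -1.73 at rest. Papolg differed by -1.73 and -1.74. For Map3k9 they were Runx3 (0.966), Slc4a1ap (0.952) and Ptpre (0.950), with differences of -0.78, -0.97 and -0.81 at rest. For Plekho2 they were the translation factor gene Eif1a (0.974), Ttll4 (0.974) and the transcription factor gene Cebpd (0.967), with differences of -1.02, -1.48 and -1.51 under LPS. None of the 12 was called with LPS in either arm. The correlation ran over the 16 arrays with and without LPS, so this too follows in part from the choice and is no result. Over all tested genes, 2.1% were called higher and 2.5% lower with LPS in DMSO, and 1.69% and 1.22% in cordycepin. With LPS in DMSO, Eif1a, Ttll4 and Cebpd differed by 0.54, 0.59 and 0.997, the last just under 2-fold.

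The genes next to Hinfp and Jrk gave few values. Within 20 kb of the Hinfp probes, C2cd2l differed by -0.34 with cordycepin at rest (adjusted p = 0.0149, limma, under 2-fold) and Abcg4 by 0.38 (adjusted p = 0.335). Them6, near Jrk, differed by 0.09 (adjusted p = 0.895), and no other gene had a tested probe within 20 kb of Map3k9.

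Of other cell types' markers, 2 of the 4 B cell markers reported here were called higher with the drug under LPS, as were 5.96% of all tested genes. Cd79a and Cd79b were higher in LPS+cordycepin than in LPS+DMSO by 2.63 (adjusted p = 1.18e-05, limma) and 1.76 (adjusted p = 0.00552). The Cd79b call was lost in 3 settings and left-out sets, with 0.79 by normexp and 0.81 by the authors' values (adjusted p = 0.0556), and 2 of 4 LPS+DMSO arrays had it well above background. With LPS in cordycepin, Cd79a and Cd79b rose by 2.69 (adjusted p = 3.43e-05, limma) and 1.61 (adjusted p = 0.0238). There the Cd79b call was lost in 14 settings and left-out sets. Ms4a1 and Pax5 of the same list were well above background on 0 and 2 of 16 arrays. The log2 of the summed signal of the 4 markers was 6.94 to 7.40 in LPS+DMSO and 8.61 to 10.20 in LPS+cordycepin. Of the T cell markers 3 of 5 were well above background on all arrays and 0 were called in any comparison. The part of these genes in the members' values was not tested. Among the macrophage markers, Cd14 differed by 1.12 and Fcgr1 by -1.14 with LPS in DMSO (adjusted p = 5.44e-06 and 0.0093, limma). These calls were lost in 1 and 6 settings and left-out sets.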

How the data were processed

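RNA of RAW264.7 cells under 4 conditions was hybridised to 16 Agilent 1-colour arrays. The deposited scanner files hold the processed intensity that the authors obtained with Agilent Feature Extraction (10.10.1.1 in the submitters' processing notes, which also name limma), after background and spatial trend subtraction and without scaling between arrays. The deposited value table of the authors holds log2 values of 23730 probes, normalized between arrays by a method not given in the sources used here. Its medians per array were 9.55 to 9.58, its correlation with the log2 scanner values was 0.995 to 0.998, and it served as an alternative.

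The members and gene lists were chosen with earlier results of these data known. Intensities were log2-transformed, outlier spots (108 to 237 an array of 59305) were left out, spots of a probe were averaged, and each array was scaled by its 75th percentile, taken over 18064 probes that were well above background everywhere. Tested probes were well above background on 4 of 4 arrays of a condition. With limma 3.58.1 (R 4.3.3), condition means were fitted on the 16 arrays together, with Benjamini-Hochberg adjustment over 21597 probes, and calls needed an adjusted p under 0.05 and 2-fold. On simulated data for cordycepin against DMSO with 21509 probes, the procedure recovered 98% of changes of -3, -2 and 2 and 100% of changes of 3 (log2), with 1 false call. The simulated noise was independent between arrays, with no slide effect and no background floor. These rates therefore need not hold for the real arrays or for dim probes. The rest ran in Python 3.11.15 (pandas 2.3.3, numpy 2.4.6, matplotlib 3.10.9).

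Genes named in the text are, by rule, up to 4 called genes of each list and comparison with the largest change, the 3 genes most like each member, the 5 largest falls, the genes ranked beside each member, and genes with a tested probe within 20 kb. Map3k10, Map3k11, Map2k4, Map2k7, the histone genes, Cenpb, Pogz, Lsm11 and Plekho1 were named after their values were seen. One marker of the B cell list is not reported here. Near background the software writes a small surrogate signal, which makes folds of dim probes uncertain, and the number of arrays limits the precision.

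The labels say that a replicate number is a day of collection, so numbers pair the samples. Residuals of arrays of the same number in different conditions correlated by a mean of 0.19 (20 of 24 pairs over 0.1), against 0.17 for other numbers within a slide and -0.18 between slides. Alternatives were other scalings, background correction, filters, blocks, thresholds and leaving out arrays.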

Additional observations from a re-analysis of the deposited data

Results flagged for a closer look

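In 24 sets of 4 arrays (6 tested probes in 4 conditions), 2 had an array whose distance to its nearest neighbour took up more of the whole range than the critical value of Dixon's test allows, and chance alone marks about 1 set in 20. Both were DMSO replicate 2, with a log2 signal of 13.80 on the Plekho2 probe at base 3257, below the other DMSO arrays, and of 7.00 on the downstream Plekho2 probe, above them. The values without this array are given with the Plekho2 results.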

How the results depend on the processing

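The differences of the 6 tested probes with cordycepin kept their sign under all 15 other settings that gave a value and all 20 left-out replicates or arrays, but sizes near background depended on the background correction. With normexp (offset 50) the difference at rest was -1.22 for Jrk, -1.97 for Hinfp, -1.21 for Map3k9 and 0.67 for the downstream Plekho2 probe, and under LPS -1.06, -1.94 and -0.52 for the first 3. With the authors' values it was -1.74 for Jrk and -1.73 for Map3k9 at rest and -2.05 for Jrk under LPS. Plekho2 at base 3257 stayed between -1.35 and -1.23 at rest and between -2.83 and -2.66 under LPS. The rise of Plekho2 with LPS was no longer called with spike-in scaling at bases 3043 (1.30) and 3257 (1.23), nor with normexp on the downstream probe (0.90). In LPS+cordycepin against cordycepin the downstream rise was not called with spike-in scaling (0.79), normexp (0.89) or the authors' values (0.98), or in 3 of the 20 left-out sets, where it ranged from 0.99 to 1.30. Spike-in scaling turned the sign of 3 small uncalled differences there, Hinfp (-0.14), Map3k9 (-0.19) and Plekho2 at base 3043 (-0.18). Leaving out replicates or arrays gave -0.32 to 0.43 for Map3k9, -0.017 to 0.35 for Plekho2 at base 3043 and -0.14 to 0.016 at base 3257.

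Counts of called probes moved by over 1.5 times under some settings. For cordycepin against DMSO, 105 (spike-in), 119 (normexp) and 1522 (no minimum fold) were lower, and 497 (normexp), 760 (authors' values), 369 (well above background on all arrays), 715 (brightest probe of a gene) and 2098 (no minimum fold) higher. For LPS+cordycepin against LPS+DMSO, 156 (normexp) and 1767 (no minimum fold) were lower, and 922, 925, 543, 945 and 2598 higher under the same 5 settings. For LPS+DMSO against DMSO, 365 (spike-in), 204 (normexp), 259 (authors' values), 228 (all arrays) and 2029 (no minimum fold) were lower, and 287 (spike-in), 284 (normexp), 272 (all arrays) and 1087 (no minimum fold) higher. For LPS+cordycepin against cordycepin, 72 (normexp), 173 (authors' values), 100 (all arrays), 194 (brightest probe) and 972 (no minimum fold) were lower, and 193 (spike-in), 168 (all arrays) and 730 (no minimum fold) higher. Spike-in scaling moved the median over all probes in that comparison from -0.05 to -0.36, and the split from 354 higher and 292 lower to 193 and 300.

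With the replicate number as a block, 240 probes were lower and 1221 higher with cordycepin at rest, and the block changed no call of the 6 probes. Without each replicate or array in turn, 197 to 265 were lower and 1021 to 1241 higher. Of the list genes, calls in LPS+cordycepin against LPS+DMSO were lost in 7 of these settings and left-out sets for Mapk8ip1, 11 for Zfp473 and 11 for Plekhg2, all by falling under 2-fold or past the p threshold, and in 0 for Tigd3 and Plekhm1. The causes were not tested.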
